A study of Homo sapiens with 3 samples.

Results

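The genes described here are 33 genes of glucose use: glucose transporters, the enzymes of glycolysis, the pentose phosphate branch, lactate production and export, pyruvate entry into mitochondria, and a small set of oxygen-sensing genes. They were chosen by name, with earlier results of these data already known. All 33 were found among the 58735 genes of the deposited tables. Of the 33, 31 reached the level required for testing, a mean of 1 FPKM (reads per kilobase of exon, scaled to sequencing depth). Total RNA came from cells that the labels call KG1a, the name of a line from acute myeloid leukaemia. There were 2 TRAF7 knockdown libraries, from cells infected with a lentivirus carrying a hairpin against TRAF7 (shTRAF7-1 and shTRAF7-2, here knockdown 1 and knockdown 2), and 1 control library, labelled wild type, from cells infected with the shCtrl lentivirus. All 3 carry the same batch label, and the labels do not say whether the knockdown libraries carry the same hairpin or come from separate cultures; the spread behind every p-value may therefore be technical.

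Glycolysis breaks glucose down to pyruvate in the cytosol. Its upper steps spend ATP to trap and split the sugar, and its lower steps return ATP and NADH. Pyruvate is then either reduced to lactate, which leaves the cell through monocarboxylate transporters, or enters mitochondria through the pyruvate dehydrogenase complex, while the pentose phosphate branch makes NADPH and ribose for nucleotides. The transcription factor HIF-1, made of HIF1A and ARNT, and MYC both act on many genes of this pathway, through DNA sites that share the letters ACGTG. Leukaemia cells, like other fast-dividing cells, are known for high glycolytic flux even when oxygen is present.

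TRAF7, the targeted gene, had 15.6 and 18.3 FPKM in knockdown 1 and 2, against 46.5 FPKM in the control. Assigned reads numbered between 16014485 and 16254461 per library. The label KG1a did not match its markers throughout: CD34, the antigen the line is known for, had 1, 10 and 0 reads in knockdown 1, knockdown 2 and the control, CD44 had 2, 7 and 0, and FLT3 had 0 in every library, while the leukocyte gene PTPRC was present at 5.60, 6.53 and 9.54 FPKM. In knockdown 1, knockdown 2 and the control, CD33 had 2.66, 5.48 and 5.37 FPKM and KIT had 1.05, 1.43 and 0.447 FPKM. MPO had 0, 1 and 0 reads. The 8 markers looked up for the label summed to 54.6 and 46.5 FPKM in the knockdown libraries, against 61.6 FPKM in the control, most of it SPN. All 7 erythroid markers were detected, with a summed level of 231 and 203 FPKM in the knockdown libraries, against 97.5 FPKM in the control; 4 of the 7, all globins, were higher in both, and ALAS2 was lower in both. The 8 stromal and epithelial markers summed to 183 and 178 FPKM in the knockdown libraries, against 168 FPKM in the control. Nearly all of it came from KRT8, KRT18, KRT19 and EPCAM, while COL1A1, COL1A2, COL3A1 and CDH1 were under 1 FPKM in every library. KRT8, KRT18 and EPCAM were higher in both knockdown libraries, and KRT19 was lower in both, at 58.5% and 92.7% of the control. The 5 lymphoid markers summed to 5.59 and 6.81 FPKM in the knockdown libraries, against 7.33 FPKM in the control. Genes annotated as sense intronic summed to 448 and 475.5 RPM, that is, reads relative to library size, in the knockdown libraries, against 553 RPM in the control. The part of these differences in the results below was not tested, and in RNA from a mass of cells fewer cells of a type and less RNA per cell cannot be told apart.

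To show the shared letters in their setting, stretches before the start of 5 members follow, 4 with a match and PFKL without any. They come from RefSeq promoter windows on build GRCh38.p14, cut to the bases that lie outside GENCODE 29 exons, and run 5′ to 3′ on the strand of the gene; capitals mark ACGTG or its reverse complement CACGT.
PGK1 promoter, chrX:78103998-78104173, plus strand: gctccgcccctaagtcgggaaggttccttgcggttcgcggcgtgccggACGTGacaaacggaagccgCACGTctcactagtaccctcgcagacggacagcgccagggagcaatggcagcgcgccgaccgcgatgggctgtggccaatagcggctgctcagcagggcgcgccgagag
LDHA promoter, chr11:18394313-18394387, plus strand: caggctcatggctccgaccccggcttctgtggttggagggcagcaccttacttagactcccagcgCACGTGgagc
GAPDH promoter, chr12:6535142-6535263, plus strand: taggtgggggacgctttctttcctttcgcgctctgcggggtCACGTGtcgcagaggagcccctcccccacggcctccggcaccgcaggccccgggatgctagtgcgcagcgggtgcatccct
BNIP3 promoter, chr10:131982014-131982173, minus strand: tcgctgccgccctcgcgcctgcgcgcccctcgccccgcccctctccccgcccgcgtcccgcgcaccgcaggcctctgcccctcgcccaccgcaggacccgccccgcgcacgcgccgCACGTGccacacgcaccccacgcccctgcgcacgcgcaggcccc
PFKL promoter, chr21:44299803-44300050, plus strand: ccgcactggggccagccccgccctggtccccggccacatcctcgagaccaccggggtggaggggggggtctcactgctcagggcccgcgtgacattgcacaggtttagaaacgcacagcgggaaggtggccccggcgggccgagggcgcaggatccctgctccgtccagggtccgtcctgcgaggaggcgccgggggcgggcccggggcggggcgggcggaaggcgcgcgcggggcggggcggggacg

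The PGK1 stretch holds ACGTG and CACGT apart from each other. In the LDHA, GAPDH and BNIP3 stretches shown, the matches form the palindrome CACGTG, the E-box bound by MYC and related factors. This palindrome contains both ACGTG and CACGT. The full LDHA window, before the cut, held 5 matches, which make up 2 CACGTG and a lone CACGT. A window at another LDHA start, not shown, held 0. RefSeq windows were found for 30 of the 33 members, not for SLC2A3, SLC16A1 and VEGFA. Over the 250 bases before each start, both strands, ACGTG was present in 21 of the members' 57 windows (36.8%), against 18.5% of all 35116 windows and 20.2% of windows of protein-coding genes. CACGTG was present in 8 of 57 (14%), against 6.34% of all windows and 7.37% of those of protein-coding genes. The members' windows were also richer in G and C, with a median of 68.4%, against 58% of all windows and 62% of those of protein-coding genes, and windows of a gene with several starts can overlap. By gene, ACGTG was present in at least 1 window of 18 of the 30 members (60%). The shares were 21.7% of all genes with a window and 25.3% of protein-coding ones. It was present for 11 of 21 members higher in both knockdown libraries (52.4%) and 5 of the 7 split members (71.4%), a difference that was not tested. The shown PGK1, LDHA, GAPDH and BNIP3 were all higher in both, and PFKL was split. PKM, ENO1 and PGAM1, also higher in both, had no match. The split members PFKP, PFKFB3, ALDOC, ENO2 and PGD each had at least 1. VEGFA, the member lower in both, has no window. A match is a description of these letters, not a bound site.

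Most members had higher transcript levels in the knockdown libraries, and the group with the highest median was the lower part of glycolysis. Of the 31 members tested, 23 were higher than the control in both knockdown libraries and 1, VEGFA, was lower in both; among all 12640 genes tested, 42.5% were higher and 30.8% lower in both. The median difference over the members was 0.27 in knockdown 1 and 0.29 in knockdown 2 on the log2(FPKM + 1) scale, against 0.06 and 0.03 over all genes tested. A difference of at least 1.5-fold upwards in both was seen for PGK1, PKM and LDHA, 3 members (2.67% of all genes tested), and downwards for 0 (3.69%). Because the members were chosen with earlier results of these data known, the comparisons with all genes are descriptions only.

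Abundance moved with direction over the whole table: among the 843 genes averaging 50 FPKM or more, 74.9% were higher and 9.61% lower in both, with a median fitted log2 fold change of 0.23. Of the 10 members at that level, 9 were higher in both, 0 were lower and PGD was split, with a median of 0.48. For 8 of the 10, both Poisson intervals (exact 95% intervals of the reads, counting error only) lay above that of the control, against 61.9% of genes at that level. Of the 21 tested members below it, 14 were higher and 1 lower in both (40.2% and 32.3% of genes there), 10 had both intervals above that of the control (12.7%), and the median was 0.17. The part of abundance in the members' differences was not tested.

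No member passed the main test. By limma with intensity trend on log2(FPKM + 1), 0 members passed an adjusted p of 0.05 (0% of all genes passed in either direction). At an unadjusted p under 0.05 there were 11 higher members and 1 lower member, against 5.46% and 3.73% of all genes tested. By limma-voom, a test that weights reads by their precision and was run on the whole reads recovered from the FPKM values, 3 of 33 members passed as higher, ENO1, PKM and LDHA, and 0 as lower; of all genes 0.206% were called higher and 0.659% lower. At an unadjusted p under 0.05 it gave 12 higher members and 1 lower member, against 5.73% and 6.39% of all genes. With 1 control library the residual spread comes from the 2 knockdown libraries alone, and the lone control is assumed to vary as they do. By counting error alone, both knockdown intervals of 18 tested members lay above that of the control (16% of all genes tested) and those of 1 lay below (7.81%).

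**Figure D1:**
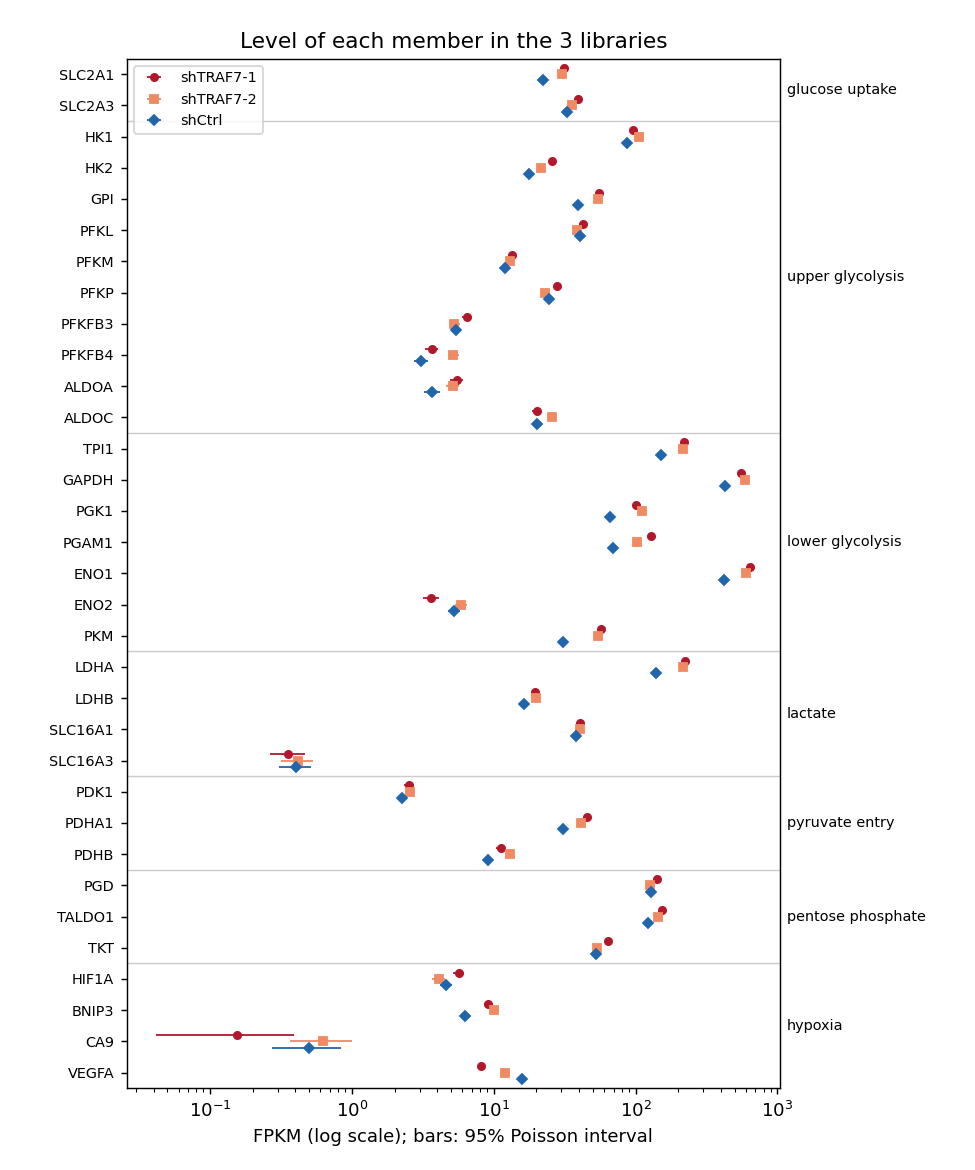
Level of the 33 members in FPKM (log axis) in knockdown 1 (shTRAF7-1), knockdown 2 (shTRAF7-2) and the control (shCtrl), grouped by step; bars are 95% Poisson intervals. ENO1 and GAPDH were the most abundant in all 3 libraries, and SLC16A3 and CA9 stayed under 1 FPKM.

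Of the glucose transporters, SLC2A1, which encodes the widespread GLUT1, had 31.3 and 30.4 FPKM in knockdown 1 and 2, against 22.1 FPKM in the control. Both knockdown values lay above the control, at 1.42 and 1.37 times its level (log2 fold change 0.46 ± 0.17, SE; limma adjusted p = 0.524). SLC2A3, which encodes the high-affinity transporter GLUT3, had 39.4 and 35.4 FPKM in the knockdown libraries, against 33.1 FPKM in the control. The knockdown libraries were again the higher ones, at 1.19 and 1.07 times the control, though the sign turned with quantile normalization. SLC2A1 made up 44.3% and 46.2% of the summed FPKM of the pair in the knockdown libraries, against 40.1% in the control.

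In the upper part of glycolysis 6 of 10 members were higher in both knockdown libraries (42.5% of all genes tested), 4 were split and 0 were lower in both (30.8%). The median fitted log2 fold change of the 10 was 0.19, against 0.04 over all genes tested. Hexokinase traps glucose as its phosphate. HK1 had 96.0 and 105.9 FPKM in knockdown 1 and 2, against 86.7 FPKM in the control, and HK2, the inducible hexokinase, had 25.9 and 21.5 FPKM, against 17.8 FPKM. Both genes were above the control in both knockdown libraries, HK2 at 1.46 and 1.21 times its level and HK1 at 1.11 and 1.22 times, HK1 turning in sign with quantile normalization. HK1 supplied 78.7% and 83.1% of the summed FPKM of HK1 and HK2 in the knockdown libraries, against 83.0% in the control, so the control value lay between the knockdown ones. GPI, the isomerase that turns glucose phosphate into fructose phosphate, had 55.4 and 54.0 FPKM in the knockdown libraries, against 39.1 FPKM in the control. Its knockdown values were close to each other and 1.42 and 1.38 times the control (log2 fold change 0.47 ± 0.16, SE; limma adjusted p = 0.495).

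At the committed step 2 of 3 genes were split. Phosphofructokinase, whose reaction commits sugar to glycolysis, is built from subunits of 3 genes, and their summed level was 84.1 and 75.1 FPKM in the knockdown libraries, against 76.8 FPKM in the control. The control lay between the knockdown libraries. PFKL, the liver-type subunit, had 42.9 and 38.9 FPKM in knockdown 1 and 2, against 40.3 FPKM in the control; PFKP, the platelet-type subunit, had 27.8 and 23.2 FPKM, against 24.5 FPKM. Both were higher in knockdown 1 and lower in knockdown 2, with fitted log2 fold changes of 0.02 ± 0.17 and 0.05 ± 0.19 (SE; limma adjusted p = 0.982 and 0.961), whose signs turned with quantile normalization and with scaling to assigned reads. PFKM, the muscle-type subunit, had 13.4 and 13.1 FPKM in the knockdown libraries, against 12.1 FPKM in the control, slightly above it in both. The shares of the 3 genes were close in all libraries: PFKL gave 51.0% and 51.8% of the sum in the knockdown libraries, against 52.4% in the control.

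Fructose-2,6-bisphosphate, made by the PFKFB enzymes, is the strongest activator of phosphofructokinase. PFKFB3 had 6.52 and 5.27 FPKM in knockdown 1 and 2, against 5.41 FPKM in the control, a split pattern. PFKFB4 had 3.65 and 5.19 FPKM in the knockdown libraries, against 3.07 FPKM in the control, above it in both and most in knockdown 2. The PFKFB3 share of this pair was 64.1% and 50.4% in the knockdown libraries, against 63.7% in the control.

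Aldolase splits the sugar into triose phosphates. ALDOC had 20.03 and 25.9 FPKM in the knockdown libraries, against 20.3 FPKM in the control, so only knockdown 2 was above it. ALDOA had 5.50 and 5.13 FPKM in the knockdown libraries, against 3.66 FPKM in the control, above it in both. The level of ALDOA is uncertain: 42.3% of its exon bases are shared with AC093512.2, a protein-coding read-through gene on the same strand that held 29 reads in each library, and how shared reads were counted is not stated. LDHB is in the same position, with 33.4% of its exon bases in AC010197.2, which had 0 reads in every library. Levels of ALDOA against ALDOC, and of LDHA against LDHB, are therefore uncertain. Without ALDOA and LDHB, 21 of 29 tested members were higher in both knockdown libraries and the median was unchanged at 0.28.

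The lower part of glycolysis had the highest median of the pathway groups. Of its 7 members 6 were higher in both knockdown libraries, each with both Poisson intervals above the control, and ENO2 was split. Of all genes tested, 42.5% were higher in both and 16% had both intervals above the control. Among genes averaging 50 FPKM or more, as most of these members do, the shares were 74.9% and 61.9%, with a median of 0.23. The median fitted log2 fold change of the 7 members was 0.55, and their summed FPKM was 1.46 and 1.44 times the control. The size depended on the scaling: the median was 0.31 with quantile normalization, under which TPI1, PGK1 and ENO1 had 0.28, 0.42 and 0.31, and 0.45 with scaling to assigned reads. TPI1, which interconverts the triose phosphates, had 218 and 217 FPKM in knockdown 1 and 2, against 150.2 FPKM in the control. The knockdown libraries were nearly equal, both 1.45 times the control (log2 fold change 0.53 ± 0.13, SE; limma adjusted p = 0.405). GAPDH, the step that makes NADH, had 555 and 588 FPKM in the knockdown libraries, against 424 FPKM in the control. Both lay above it by 1.31 and 1.38 times, a log2 fold change of 0.43 ± 0.11 (SE; limma adjusted p = 0.407) for a transcript often used to normalise other measurements. With quantile normalization the difference of GAPDH was 0.20, and with scaling to assigned reads 0.32.

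The ATP-producing steps were among the members with the highest folds. PGK1, phosphoglycerate kinase, the first ATP-producing enzyme (chromosome X, positions 77910739 to 78129296, plus strand, GRCh38), had 100.05 and 112 FPKM in knockdown 1 and 2, against 66.4 FPKM in the control. Both knockdown libraries exceeded the control by over 1.5 times (1.51 and 1.69; log2 fold change 0.66 ± 0.16, SE; limma adjusted p = 0.403, limma-voom adjusted p = 0.0558). PKM, pyruvate kinase, the second ATP-producing enzyme (chromosome 15, 72199029 to 72231822, minus strand), had 56.9 and 54.0 FPKM in the knockdown libraries, against 31.0 FPKM in the control. Both knockdown values, close to each other, were 1.83 and 1.74 times the control. PKM had the highest fitted difference of the tested members and passed by limma-voom (log2 fold change 0.84 ± 0.18, SE; adjusted p = 0.0138; limma adjusted p = 0.403). Values per gene do not separate the PKM1 and PKM2 isoforms.

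Between these steps, PGAM1, phosphoglycerate mutase (chromosome 10, 97426160 to 97433441, plus strand), had 129 and 102 FPKM in knockdown 1 and 2, against 69.6 FPKM in the control. Both values were above the control, at 1.85 and 1.47 times, with knockdown 1 at 1.26 times knockdown 2 (log2 fold change 0.71 ± 0.19, SE; limma adjusted p = 0.443). ENO1, enolase, the member with the highest mean level, though just under GAPDH in the control (chromosome 1, 8861000 to 8879250, minus strand), had 639 and 598 FPKM in the knockdown libraries, against 421 FPKM in the control. Both knockdown values were above the control, at 1.52 and 1.42 times, and ENO1 passed by limma-voom (log2 fold change 0.55 ± 0.14, SE; adjusted p = 0.0453; limma adjusted p = 0.403). ENO2, the neuronal enolase, had 3.63 and 5.88 FPKM in the knockdown libraries, against 5.27 FPKM in the control. Its control value lay between the knockdown values, and it made up 0.565% and 0.973% of the summed FPKM of ENO1 and ENO2 in the knockdown libraries, against 1.24% in the control.

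**Figure D2:**
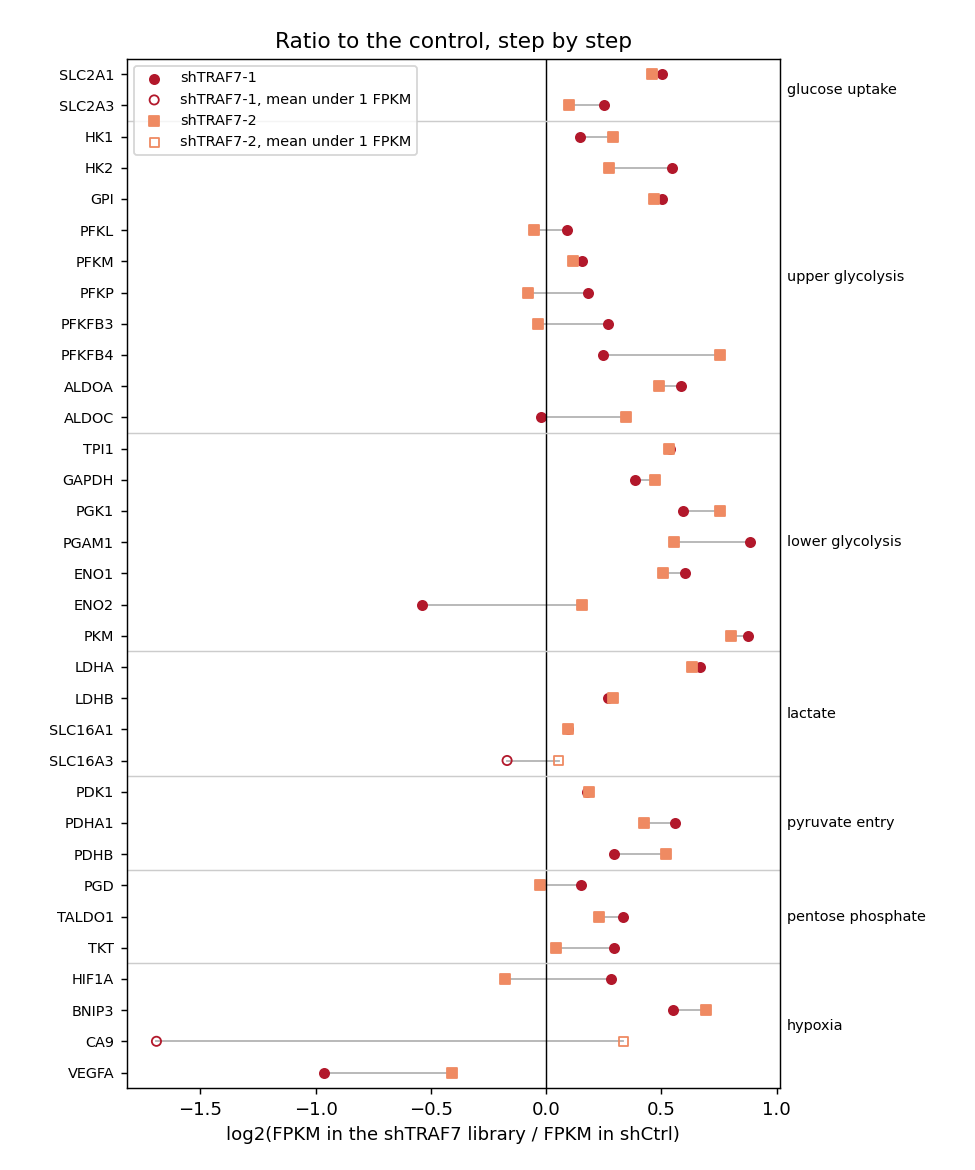
Log2 ratio of FPKM in each knockdown library to the control for the 33 members, in pathway order; a grey line joins the 2 libraries of a gene, and open symbols mark the 2 members with a mean under 1 FPKM. From TPI1 to LDHA both symbols lie right of 0 for every gene except ENO2, while PFKL, PFKP, PFKFB3, ALDOC, PGD, HIF1A and the under-filter SLC16A3 and CA9 lie on both sides of it and VEGFA lies left in both.

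Lactate dehydrogenase reduces pyruvate to lactate and restores NAD for the GAPDH step. LDHA (chromosome 11, 18394388 to 18408425, plus strand), whose promoter stretch with CACGTG is shown above, had 222 and 217 FPKM in knockdown 1 and 2, against 140.1 FPKM in the control. The knockdown values were 1.59 and 1.55 times the control and differed from each other by less than from it (95% Poisson intervals 219 to 225 and 214 to 220.0 FPKM, against 138 to 142 FPKM). LDHA passed by limma-voom (log2 fold change 0.65 ± 0.16, SE; adjusted p = 0.0366; limma adjusted p = 0.403). LDHB, the subunit that favours lactate use, had 19.7 and 19.997 FPKM in the knockdown libraries, against 16.3 FPKM in the control, higher in both by 1.21 and 1.22 times.

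The lactate exporters lay close to the control. SLC16A1, which encodes the transporter MCT1, had 40.8 FPKM in each knockdown library, against 38.2 FPKM in the control. That is 1.07 times the control in both, with overlapping Poisson intervals, and its sign turned with quantile normalization and with scaling to assigned reads. SLC16A3, which encodes the export-type transporter MCT4, was under the testing filter, at 0.357 and 0.417 FPKM in the knockdown libraries, against 0.402 FPKM in the control. These values rest on 50, 61 and 61 reads, and their intervals overlapped.

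**Figure D3:**
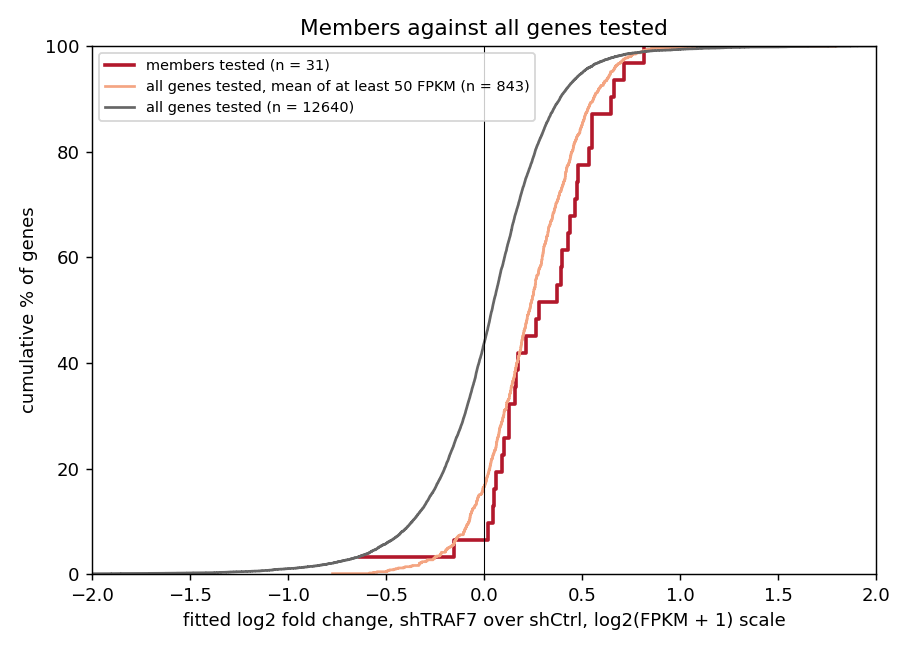
Cumulative share of genes by fitted log2 fold change (knockdown over control, log2(FPKM + 1) scale) for the 31 tested members, the 843 tested genes averaging 50 FPKM or more and all 12640 genes tested. The members' median, 0.28, lies right of 0.23 for the abundant genes and 0.04 for all genes.

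All 3 members of pyruvate entry had higher transcript levels in both knockdown libraries (42.5% of all genes tested did). PDHA1, the catalytic alpha subunit of pyruvate dehydrogenase, had 45.5 and 41.6 FPKM in knockdown 1 and 2, against 31.0 FPKM in the control. It was 1.47 and 1.34 times the control (log2 fold change 0.48 ± 0.17, SE; limma adjusted p = 0.523); 21.3% of its exon bases overlap MAP3K15 on the other strand, which had 0 and 0 reads in the knockdown libraries, against 2 in the control. PDHB, the beta subunit, had 11.2 and 13.1 FPKM in the knockdown libraries, against 9.14 FPKM in the control, again higher in both. PDK1, the kinase that switches the complex off and a known HIF-1 target, had 2.54 and 2.56 FPKM in the knockdown libraries, against 2.25 FPKM in the control. Its knockdown values were nearly equal and 1.13 and 1.14 times the control, with overlapping intervals.

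The pentose phosphate members had a median of 0.16, set beside 0.55 in lower glycolysis, a difference that was not tested. Of the 3 members, 2 were higher in both knockdown libraries (42.5% of all genes tested). All 3 averaged over 50 FPKM, and among genes at that level 74.9% were higher in both, with a median of 0.23. PGD, phosphogluconate dehydrogenase of the NADPH-producing arm, had 142 and 126 FPKM in knockdown 1 and 2, against 128 FPKM in the control, a split pattern. TALDO1, transaldolase, had 154 and 143 FPKM in the knockdown libraries, against 122 FPKM in the control, above it in both by 1.26 and 1.17 times. TKT, transketolase, had 64.0 and 53.8 FPKM in the knockdown libraries, against 52.2 FPKM in the control. Only knockdown 1 stood clear of the control for TKT. Fitted log2 fold changes of PGD, TALDO1 and TKT were 0.06, 0.28 and 0.16 (limma adjusted p = 0.929, 0.602 and 0.808), with those of PGD and TKT turning in sign with quantile normalization.

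The oxygen-sensing members did not move as a set. HIF1A had 5.65 and 4.11 FPKM in the knockdown libraries, against 4.65 FPKM in the control, which lay between them. BNIP3, a mitophagy receptor and HIF-1 target whose promoter stretch is shown above, had 9.17 and 10.1 FPKM in the knockdown libraries, against 6.26 FPKM in the control. It was 1.46 and 1.62 times the control (log2 fold change 0.55 ± 0.18, SE; limma adjusted p = 0.490), and 1.39 and 1.52 times with the reads on its 39 annotated pseudogenes added, which came to 59 and 59 reads in the knockdown libraries, against 75 in the control. VEGFA, an angiogenic growth factor and HIF-1 target (chromosome 6, 43770184 to 43786487, plus strand), had 8.18 and 12.03 FPKM in the knockdown libraries, against 15.9 FPKM in the control. Both knockdown values lay below it, at 51.3% and 75.5% of its level, with the knockdown libraries also apart from each other (log2 fold change −0.63 ± 0.25, SE; limma adjusted p = 0.540, limma-voom adjusted p = 0.105). CA9, a carbonic anhydrase that HIF-1 induces strongly, was barely detected, with 4 and 17 reads in the knockdown libraries, against 14 in the control, and 38.5% of its exon bases overlap ARHGEF39 on the other strand.

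**Figure D4:**
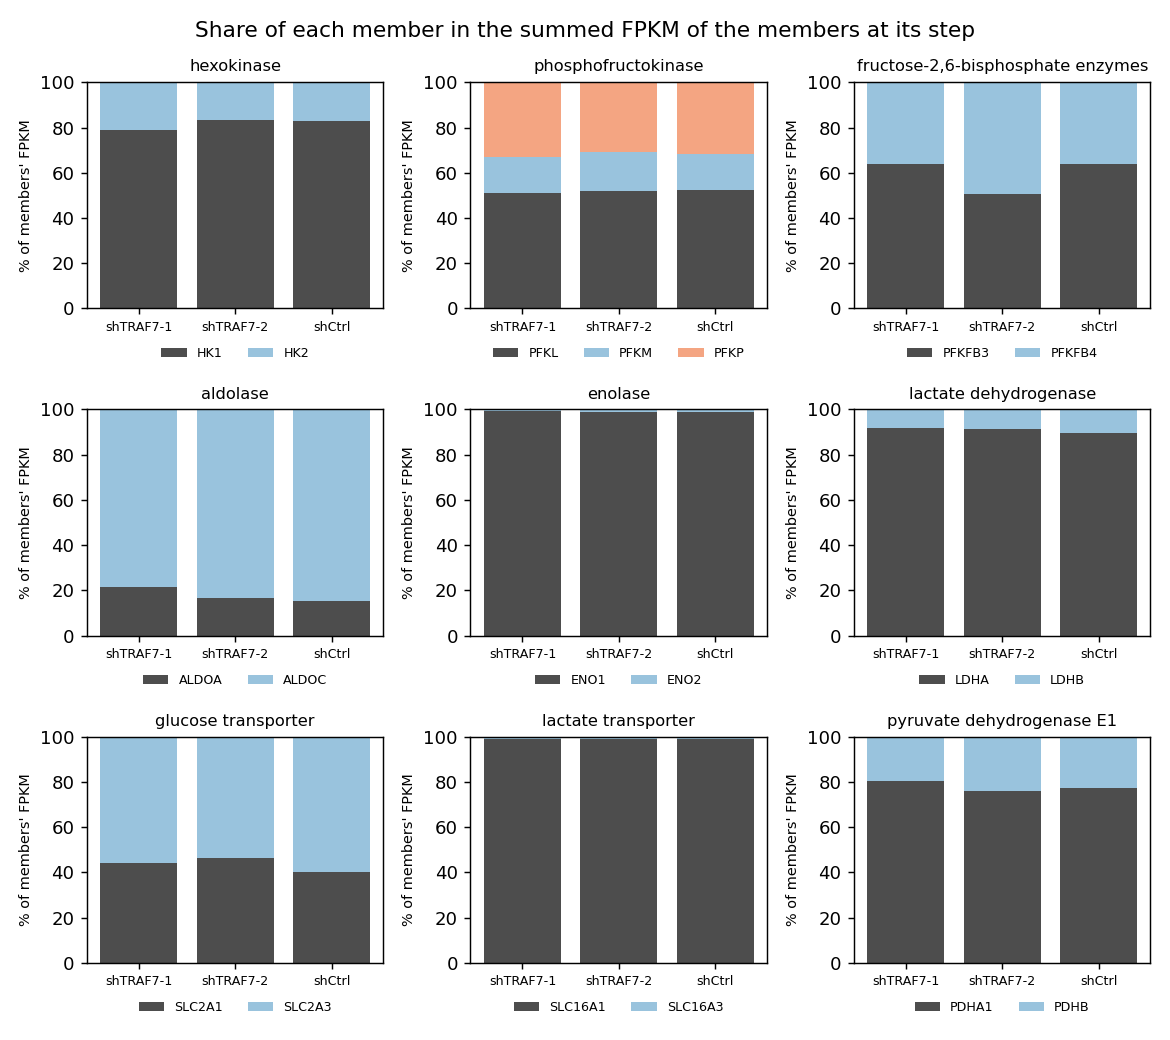
Share of each member in the summed FPKM of the members at its step, in percent (other isozymes such as ENO3 not counted), for knockdown 1 (shTRAF7-1), knockdown 2 (shTRAF7-2) and the control (shCtrl). ENO1, LDHA, SLC16A1 and HK1 hold most of their panels in all 3 libraries, with ENO1 at 99.4% and 99.03% in the knockdown libraries against 98.8% in the control; ALDOA and LDHB share exons with read-through genes, so the aldolase and lactate dehydrogenase panels are uncertain.

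A further 88 genes of these pathways were examined as lists; 46 passed the same filter, of which 24 were higher and 7 lower in both knockdown libraries (42.5% and 30.8% of all genes tested), with a median fitted log2 fold change of 0.14 (0.04 over all genes). By limma 0 of the 46 passed, with 4 higher and 2 lower at an unadjusted p under 0.05 (5.46% and 3.73% of all genes tested), counts near the background. By limma-voom 0 of 58 passed as higher and 1 as lower (0.206% and 0.659% of all genes). That gene was H6PD, the hexose phosphate dehydrogenase of the endoplasmic reticulum, named after its values were seen. It had 0.703 and 2.43 FPKM in knockdown 1 and 2, against 3.63 FPKM in the control, lowest in knockdown 1 (limma-voom adjusted p = 0.0163, limma adjusted p = 0.566).

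Among the pentose phosphate and ribose phosphate genes 6 of 8 tested were higher in both knockdown libraries and 2 lower (42.5% and 30.8% of all genes tested). The median of this list was 0.34. PRPS1, which activates ribose phosphate for nucleotide synthesis, had 61.3 and 55.6 FPKM in the knockdown libraries, against 40.2 FPKM in the control. Its paralogue PRPS2 had 31.7 and 29.9 FPKM, against 21.9 FPKM, and the epimerase RPE had 13.01 and 13.7 FPKM, against 9.06 FPKM. All 3 were above the control in both knockdown libraries, with log2 fold changes of 0.53, 0.47 and 0.51 (limma adjusted p = 0.490, 0.524 and 0.495).

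In the list of pyruvate entry 4 of 9 tested genes were higher in both knockdown libraries (42.5% of all genes tested) and 1 was lower (30.8%). The lower one was PC (pyruvate carboxylase), at 10.8 FPKM in all 3 libraries and lower only in later decimals. MPC2, a subunit of the mitochondrial pyruvate carrier, had 26.2 and 21.9 FPKM in the knockdown libraries, against 14.2 FPKM in the control, and its partner MPC1 had 17.2 and 16.2 FPKM, against 12.3 FPKM. DLAT, the acetyltransferase of the pyruvate dehydrogenase complex, had 50.4 and 44.5 FPKM, against 38.8 FPKM. The carrier subunits and DLAT were above the control in both, MPC2 by the most (log2 fold change 0.71 ± 0.20, SE; limma adjusted p = 0.445, limma-voom adjusted p = 0.0837).

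Of the other glycolytic isozymes and regulators 4 of 15 were tested, 2 higher and 2 lower in both (42.5% and 30.8% of all genes tested). The median of this list was −0.06. BPGM, which makes bisphosphoglycerate and is best known in red cells, had 7.72 and 8.23 FPKM in the knockdown libraries, against 5.86 FPKM in the control. ENO3, the muscle enolase, had 2.40 and 2.89 FPKM, against 4.35 FPKM, and PFKFB2 had 3.50 and 3.43 FPKM, against 4.33 FPKM; both were lower in both knockdown libraries. Of 9 lactate genes only BSG was tested, the glycoprotein that carries MCT1 and MCT4 to the membrane, with 144 and 161 FPKM in the knockdown libraries, against 128 FPKM in the control.

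Glucose transport and trapping genes, 6 of 16 tested, were higher in both for 4 and lower in both for 0 (42.5% and 30.8% of all genes tested). The median of this list was 0.16. SLC2A8 had 4.20 and 3.73 FPKM in the knockdown libraries, against 3.17 FPKM in the control, the phosphatase gene G6PC3 had 14.7 and 13.7 FPKM, against 12.2 FPKM, and TXNIP, a brake on glucose uptake, had 69.2 and 76.9 FPKM, against 64.7 FPKM. All were above the control by modest amounts (log2 fold changes of 0.25, 0.20 and 0.17). Of the hypoxia regulators and targets 18 of 24 were tested, 7 higher, 2 lower and 9 split. Of all genes tested, 42.5% were higher and 30.8% lower in both. The median of this list was 0.08, against 0.04 over all genes tested. CITED2, a HIF-1 feedback inhibitor, had 19.1 and 17.7 FPKM in the knockdown libraries, against 14.7 FPKM in the control; DDIT4, a stress-induced inhibitor of mTORC1, had 34.6 and 34.4 FPKM, against 28.8 FPKM, and MXI1, a MYC antagonist, had 6.19 and 5.49 FPKM, against 4.69 FPKM. Each was above the control in both knockdown libraries, with log2 fold changes of 0.31, 0.25 and 0.26 and limma adjusted p = 0.643, 0.683 and 0.692. The 2 lower genes, named after their values were seen, were VHL, which marks HIF1A for degradation, at 26.7 and 28.8 FPKM in the knockdown libraries, against 32.6 FPKM in the control, and the histone demethylase KDM3A, at 7.71 and 6.87 FPKM, against 7.95 FPKM.

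Processed pseudogenes resemble several of these mRNAs and can draw reads from them. There were 147 pseudogenes named after 16 members, 62 of them after GAPDH, and they held little beside their parents. GAPDH pseudogenes came to 0.451% and 0.509% of the parent's reads in knockdown 1 and 2, against 0.478% in the control, and LDHA pseudogenes to 0.340% and 0.269%, against 0.204%. BNIP3 had the largest share, at 7.76% and 6.73% in the knockdown libraries, against 13.3% in the control.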

How the data were processed

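RNA of 3 libraries was sequenced, 2 TRAF7 knockdown and 1 control. The authors deposited FPKM values of 58735 Ensembl genes. BWA, Bowtie and hg19 appear in the submitters' processing notes, without roles or versions; what tool counted reads, and whether by strand, is not stated there. All identifiers matched GENCODE 29 (GRCh38), which gave symbols, exon lengths and gene coordinates. Multiplied by exon length, 100% of FPKM values gave whole reads after division by a constant of the library (within 0.05), in total 16221721, 16254461 and 16014485 reads (knockdown 1, knockdown 2, control). The divisors implied by the deposited FPKM equal median-of-ratios factors to 4 decimals (0.9629, 1.0061 and 1.0446), so the values already carry that scaling.

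The test was limma 3.58.1 (R 4.3.3) with trend on log2(FPKM + 1), mean of at least 1 FPKM, Benjamini-Hochberg adjustment over all genes; the pseudocount understates changes of low genes. limma-voom used recovered reads (mean of at least 10), with the deposited scaling. Both were also run on simulated data with planted changes. Only the sign and size of those changes had to be recovered, so that run does not vouch for the p-values given here. Intervals are exact Poisson. All members are reported; of the other pathway lists, up to 3 genes with the lowest p are named. The members and lists were chosen with earlier results of these data known. Alternatives were other scalings, filters, pseudocounts, no trend, and each knockdown library alone; leaving out ALDOA and LDHB was added after seeing the data.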

Additional observations from a re-analysis of the deposited data

How the results depend on the processing

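Under the alternative settings the members stayed mostly higher: 19 to 28 of those tested were higher in both knockdown libraries, or in the remaining one, under every setting run, against 23 as reported. The count lower in both was 5 with quantile normalization and 2 with scaling to all assigned reads, and 3 to 6 with a single knockdown library. The members' median of 0.28 was 0.33 at a mean of at least 5 FPKM, 0.27 with no filter, 0.22 with a pseudocount of 5, 0.19 with quantile normalization and 0.17 with scaling to all assigned reads, and 0.27 to 0.29 with a single knockdown library. The median over all genes moved too, from 0.04 as reported to 0.11 at a mean of at least 5 FPKM and 0.0014 with no filter. It was 0.02 with a pseudocount of 5, 0.02 with quantile normalization and −0.05 with scaling to all assigned reads. The genes called over the whole table were 0 as reported, 3 at a mean of at least 5 FPKM, 13 among protein-coding genes and 130 by limma-voom, with 0 members called in the first 3 settings. With quantile normalization the log2 fold changes of GPI, PDHA1, LDHA, PGAM1 and TALDO1 were 0.29, 0.30, 0.39, 0.47 and 0.0559, against 0.47, 0.48, 0.65, 0.71 and 0.28 as reported. Signs turned with quantile normalization for SLC2A3 (−0.0090), HK1 (−0.0485), PFKL (−0.16), PFKP (−0.11), SLC16A1 (−0.0931), PGD (−0.16) and TKT (−0.0342), and with scaling to all assigned reads for PFKL (−0.0841), PFKP (−0.0515), SLC16A1 (−0.0102), PGD (−0.0437) and HIF1A (−0.0422); the cause was not tested. With a single knockdown library, which gives no test, log2 fold changes ran from −0.0498 to 0.0882 for PFKL, −0.0756 to 0.18 for PFKP, −0.0307 to 0.23 for PFKFB3, −0.0214 to 0.33 for ALDOC, −0.44 to 0.13 for ENO2, −0.0252 to 0.15 for PGD and −0.14 to 0.24 for HIF1A. No paired analysis was possible because there is 1 control library and its label carries no replicate number.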

Other observations

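Among the members, 6 lie on chromosome 12, and GAPDH, TPI1 and ENO2 are near neighbours there, with 329 kb between GAPDH and TPI1 and 42.8 kb between TPI1 and ENO2 (GENCODE 29, GRCh38). TPI1 and GAPDH were higher in both knockdown libraries, whereas ENO2 was at 68.9% of the control in knockdown 1 and at 111% in knockdown 2.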
